A study of Mus musculus with 6 samples.

Results

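STAT5A and STAT5B are transcription factors that cytokine receptors and the BCR-ABL kinase switch on by phosphorylation, and 10 genes of this pathway were read here: Stat5a and Stat5b themselves, the feedback inhibitors Cish, Socs1, Socs2 and Socs3, the survival kinases Pim1 and Pim2, the anti-apoptotic gene Bcl2l1 and the cell cycle gene Ccnd2. Members were found by gene symbol: every probe set of the deposited table that carried values and had 1 of these symbols alone in the platform annotation was taken. This gave 12 probe sets of the 34499 with values, or 10 of 19934 genes. Socs2 and Socs3 were each read by 2 probe sets, and the other 8 genes by 1 each.

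The samples were 6 whole-transcript arrays of mouse marrow cells sorted by FACS as GFP+Lin-c-Kit+Sca-1+, a gate containing stem cells and early progenitors of the blood, with 2 arrays in each of 3 groups. In all groups donors had received 5-fluorouracil, a drug that depletes dividing marrow cells, their marrow was transduced with a retrovirus, the recipients were B6 mice, and cells were taken 14 days after transplantation. HSC came from wild-type C57BL/6 (B6) marrow and did not express BCR-ABL, the fusion kinase of chronic myeloid leukaemia; the protocol's control virus carried GFP alone. LSC (leukaemia stem cells) came from wild-type marrow with the BCR-ABL/GFP virus, and Alox5-/- LSC from Alox5-/- marrow with the same virus; strain C57BL/6 (B6) and an age of 8 weeks were labelled for every sample. BCR-ABL was thus delivered by a viral vector to transplanted marrow rather than expressed from its own locus. An Alox5-/- group with GFP alone was not analysed here. The labels call the 2 arrays of each group biological replicates, and how many animals stand behind an array is not given.

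In its resting state STAT5 sits in the cytoplasm; once phosphorylated it forms dimers, enters the nucleus and binds a short palindrome in the DNA of its targets. Among those targets are genes that feed back on it: CISH and the SOCS proteins bind activated receptors or kinases and damp the signal. Others keep cells alive or cycling, and in BCR-ABL leukaemia STAT5 is known as a main carrier of the survival signal.

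The values are scores of a quantity that no source used here names, so a higher score cannot be read as more RNA, and no fold change is given. They ran from 0 to 62.1 with array medians from 14.5 to 16.4, highest on HSC replicate 2 and lowest on Alox5-/- LSC replicate 2. As a check of direction, 22 probe sets of widely expressed genes had a median score of 12.7 and 17 probe sets of genes typical of other organs had 17.9, so high scores did not go with genes expected to be abundant in blood cells. Kit, a gene of the sorting gate, scored 12.6 and 15.4 on HSC, 11.1 and 14.5 on LSC and 11.5 and 10.5 on Alox5-/- LSC arrays; Ly6a, which encodes Sca-1, was not analysed here. In these bulk samples fewer cells of a type and less RNA per cell cannot be told apart.

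The palindrome TTCNNNGAA, the core of a STAT5 binding site, was searched in RefSeq promoter windows of assembly GRCm38.p6, each 300 bases long, from 250 before to 50 after an annotated start. Its form reads the same on the opposite strand, so the search covered both. Windows were at hand for 8 of the 10 genes (13 windows), so Socs2 and Ccnd2 were not searched. Of the 13 windows 2 held the motif, 1 of Cish and 1 of Socs3, against 8.3% of all 32851 windows. The Cish window held 2 copies, which 0.457% of all windows did (2 or more). These stretches are shown because they place the motif beside feedback genes whose scores follow, with motif copies in capitals; the Cish copies begin at offsets 0 and 11 from its start, and the Socs3 copy lies at -154 to -146.
Cish, chr9:107296654-107296683, plus strand: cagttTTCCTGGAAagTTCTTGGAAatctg
Socs3, chr11:117969417-117969566, minus strand: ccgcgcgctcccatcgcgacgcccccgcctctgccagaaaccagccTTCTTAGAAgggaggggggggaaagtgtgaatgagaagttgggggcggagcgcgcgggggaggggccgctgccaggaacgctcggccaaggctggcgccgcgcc
A match is a description of letters, not evidence of binding, and the arrays did not measure binding.

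Stat5a and Stat5b encode closely related STAT5 proteins from neighbouring genes, and their LSC minus HSC differences had opposite signs. Stat5a scored 15.6 and 17.5 in HSC, 17.9 and 18.5 in LSC and 18.5 and 16.2 in Alox5-/- LSC. Both LSC arrays were above both HSC arrays, while the Alox5-/- LSC arrays overlapped each of the other groups. Stat5b scored 19.9 and 24.0 in HSC, 19.4 and 17.5 in LSC and 21.3 and 18.6 in Alox5-/- LSC, so that both LSC arrays lay below both HSC arrays, by a narrow margin set by HSC replicate 1. LSC minus HSC was 1.64 ± 1.37 (SE; limma adjusted p = 0.995) for Stat5a and -3.48 ± 1.87 (adjusted p = 0.993) for Stat5b. Neither difference exceeded the spread between replicates, and the HSC pair alone differed by 4.14 for Stat5b, wider than for 83.8% of all probe sets. The difference was 0.73 without HSC replicate 1 for Stat5a, and -1.41 without HSC replicate 2 for Stat5b.

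**Figure D1:**
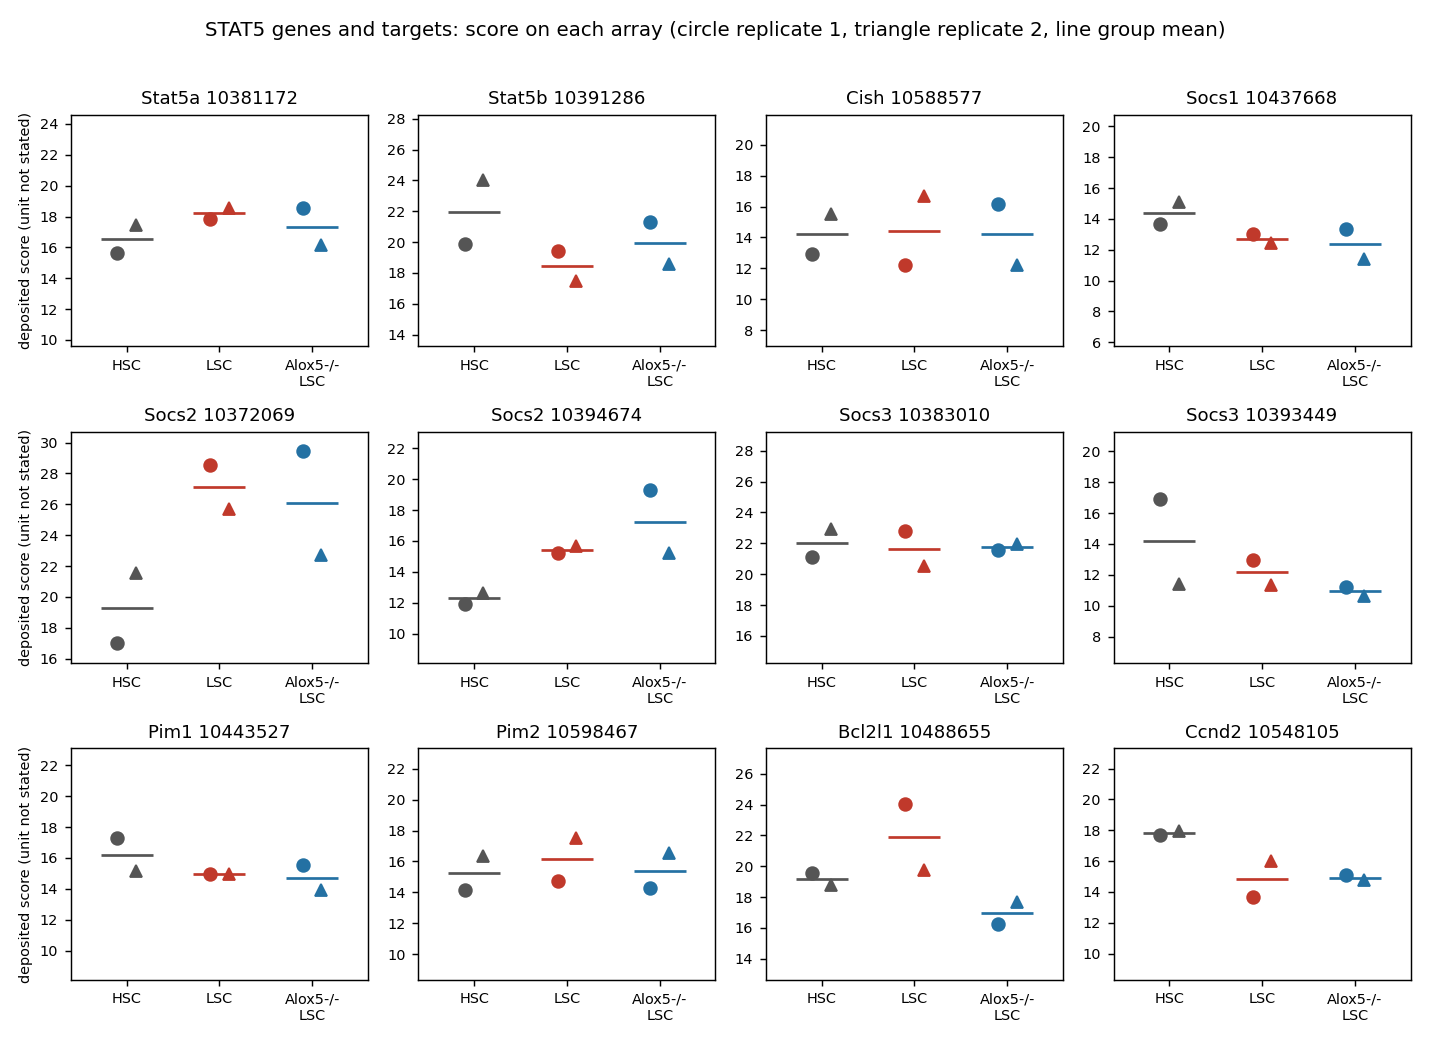
Deposited score (unit not stated) of each STAT5 member probe set on the 6 arrays, with circles for replicate 1, triangles for replicate 2 and lines for the mean of 2; every panel spans the same number of score units. Both Socs2 probe sets are higher on all 4 BCR-ABL arrays than on both HSC arrays, and Ccnd2 and Socs1 are lower on all 4.

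Among the feedback inhibitors, Socs2 stood furthest apart. SOCS2 is an adaptor of a ubiquitin ligase that limits growth hormone and other JAK-STAT signalling. Its first probe set (10372069) scored 17.0 and 21.5 on HSC, 28.5 and 25.7 on LSC and 29.4 and 22.7 on Alox5-/- LSC arrays. The second (10394674) scored 11.9 and 12.6 on HSC, 15.2 and 15.7 on LSC and 19.3 and 15.2 on Alox5-/- LSC arrays. With either probe set all 4 BCR-ABL arrays were above both HSC arrays, and the platform ties both to the same 4 RefSeq transcripts. The mean of both BCR-ABL groups minus HSC was 7.32 ± 2.37 for the first (SE; 95% interval 1.49 to 13.1; limma adjusted p = 0.774) and 4.07 ± 1.38 for the second (0.68 to 7.45; adjusted p = 0.775). Neither passed over all probe sets. The first probe set differed by 5.04 without HSC replicate 1 and by 9.60 without HSC replicate 2.

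In LSC minus HSC, of wild-type marrow alone, the Socs2 differences were 7.83 ± 2.74 (95% interval 1.10 to 14.6) and 3.16 ± 1.59 (-0.75 to 7.07). The limma adjusted p was 0.993 for each. For Alox5-/- LSC minus HSC the Socs2 differences were 6.80 ± 2.74 (limma adjusted p = 0.769) and 4.97 ± 1.59 (adjusted p = 0.769). Without Alox5-/- LSC replicate 1 they were 3.44 and 2.94. Between the BCR-ABL groups, the Socs2 probe sets did not separate. The difference of Alox5-/- LSC from LSC was -1.03 for the first, with a 95% interval from -7.75 to 5.70, and 1.81 for the second, from -2.10 to 5.71 (limma adjusted p = 1.00 for each). On both probe sets Alox5-/- LSC replicate 1 carried the highest score of the 6 arrays, and its distance from replicate 2 was 6.72 and 4.06 score units. Without Alox5-/- LSC replicate 1 the second probe set changed sign, to -0.23.

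Cish, a feedback inhibitor of cytokine receptors and a classical STAT5 target, showed no difference between groups that exceeded its replicates. It scored 12.9 and 15.5 on HSC, 12.2 and 16.7 on LSC and 16.2 and 12.2 on Alox5-/- LSC arrays. Within each BCR-ABL group the arrays spanned nearly the whole range of the gene, with gaps of 4.47 in LSC and 3.97 in Alox5-/- LSC, wider than for 89.4% and 81.4% of probe sets. LSC minus HSC was 0.23, with a 95% interval from -5.07 to 5.52 (limma adjusted p = 0.999), so a difference of several units either way was not detectable.

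Socs1 encodes a direct inhibitor of JAK kinases. Its scores were 13.7 and 15.1 on HSC, 13.0 and 12.5 on LSC and 13.4 and 11.4 on Alox5-/- LSC arrays, so all 4 BCR-ABL arrays were below both HSC arrays. The mean of both BCR-ABL groups minus HSC was -1.83 ± 1.10 (SE; limma adjusted p = 0.832), and -1.12 without HSC replicate 2. The nearest arrays, HSC replicate 1 and Alox5-/- LSC replicate 1, differed little beside the replicate gap of 1.42 in HSC.

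Socs3, which blocks JAK kinases at the receptors for interleukin-6 and G-CSF, was read by 2 probe sets that disagreed. The first (10383010) is tied to 1 sequence entry and to 0 RefSeq transcripts, and scored 21.1 and 23.0 on HSC, 22.8 and 20.5 on LSC and 21.6 and 22.0 on Alox5-/- LSC arrays, with all groups overlapping. The second (10393449), tied to the RefSeq transcript, scored 16.9 and 11.4 on HSC, 13.0 and 11.3 on LSC and 11.2 and 10.6 on Alox5-/- LSC arrays. Here HSC replicate 1 stood alone at the top, and both Alox5-/- LSC arrays were below both arrays of LSC and both of HSC. The margins were narrow, with 11.23 in Alox5-/- LSC beside 11.33 in LSC and 11.42 in HSC. Both separations were lost once arrays were centred. Alox5-/- LSC minus HSC was -3.26 ± 1.98 for the second probe set (SE; limma adjusted p = 0.810), and -0.50 without HSC replicate 1. The first gave -0.27 ± 1.38 (adjusted p = 0.978), and its sign turned when arrays were centred on their medians (0.61).

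Pim1 and Pim2 encode serine/threonine kinases that promote survival and growth downstream of STAT5. Pim1 scored 17.3 and 15.1 on HSC, 14.9 and 15.0 on LSC and 15.5 and 13.9 on Alox5-/- LSC arrays. LSC arrays lay below HSC arrays, but HSC replicate 2 was almost level with LSC and the order was lost once arrays were centred. Pim2 scored 14.1 and 16.4 on HSC, 14.7 and 17.5 on LSC and 14.3 and 16.5 on Alox5-/- LSC arrays, and all groups overlapped. In each group the lower Pim2 score was on the array numbered 1. Both BCR-ABL groups minus HSC gave -1.38 ± 1.12 for Pim1 (SE; limma adjusted p = 0.881) and 0.53 ± 1.39 for Pim2 (adjusted p = 0.972). Without HSC replicate 1 the Pim1 difference was -0.31, and after centring -0.70.

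Bcl2l1, whose long product BCL-XL blocks mitochondrial cell death, had the largest difference of the 12 member probe sets between the BCR-ABL groups as deposited. It scored 19.6 and 18.8 on HSC, 24.0 and 19.8 on LSC and 16.3 and 17.7 on Alox5-/- LSC arrays. As deposited the order was LSC, then HSC, then Alox5-/- LSC, with no overlap between neighbours, although LSC replicate 2 and HSC replicate 1 were almost level. Its difference, Alox5-/- LSC minus LSC, was -4.91 ± 1.68 (SE; 95% interval -9.04 to -0.78; limma adjusted p = 1.00). It was -2.78 without LSC replicate 1 and -7.04 without LSC replicate 2. After quantile normalization the unadjusted p was no longer under 0.05. LSC minus HSC was 2.71 ± 1.68 (adjusted p = 0.993) and Alox5-/- LSC minus HSC was -2.20 ± 1.68 (adjusted p = 0.839). Without LSC replicate 1 the former was 0.58, and after centring the latter was -1.32. The last pair overlapped once arrays were centred on their medians, while LSC stayed above Alox5-/- LSC.

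Ccnd2 encodes cyclin D2, which drives entry into S phase. It scored 17.7 and 18.0 on HSC, 13.7 and 16.0 on LSC and 15.1 and 14.8 on Alox5-/- LSC arrays. All 4 BCR-ABL arrays were below both HSC arrays, and the HSC pair differed by 0.26, less than most probe sets. Both BCR-ABL groups minus HSC was -2.94 ± 1.08 (SE; 95% interval -5.59 to -0.29; limma adjusted p = 0.781). Leaving out LSC replicate 2 gave -3.52, and leaving out LSC replicate 1 gave -2.35. After centring it was -2.26, and the unadjusted p was then no longer under 0.05. Each BCR-ABL group alone gave a 95% interval that included 0. It was -6.04 to 0.08 for LSC minus HSC (-2.98 ± 1.25, limma adjusted p = 0.993). It was -5.95 to 0.17 for Alox5-/- LSC minus HSC (-2.89 ± 1.25, limma adjusted p = 0.772). Alox5-/- LSC minus LSC was 0.09, with an interval from -2.97 to 3.15 (limma adjusted p = 1.00).

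**Figure D2:**
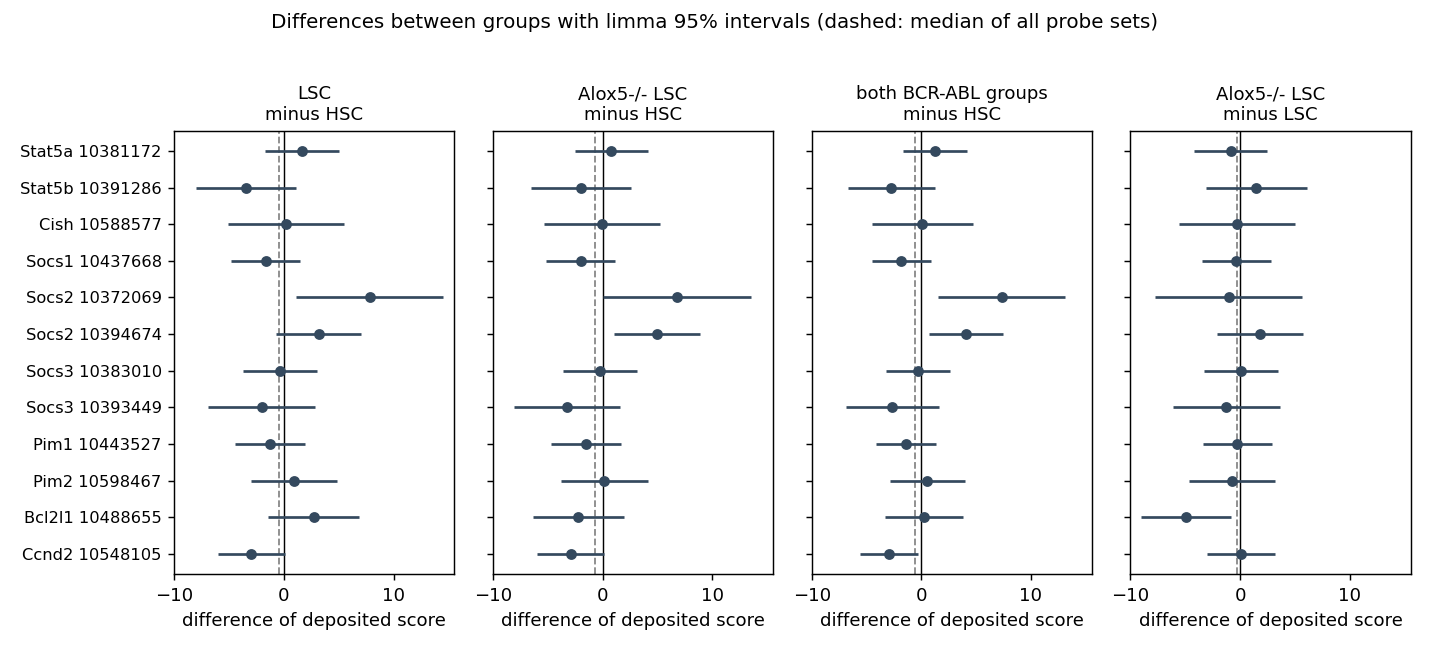
Difference of deposited score for each STAT5 member probe set in 4 comparisons, with points for the limma estimate, bars for its 95% interval and a dashed line for the median difference of all 34499 probe sets. Against HSC the bars of 1 or both Socs2 probe sets lie above 0, the Ccnd2 bar for both BCR-ABL groups lies below 0, and for Alox5-/- LSC minus LSC the Bcl2l1 bar alone lies below 0; these bars are not corrected for the number of probe sets.

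No member passed at an adjusted p under 0.05 in any of the 4 comparisons, nor did any other probe set (limma, 0 of 34499, which is 0%). At an unadjusted limma p under 0.05, LSC against HSC had 1 of 12 member probe sets (Socs2), where all probe sets gave 4.94%. Alox5-/- LSC against LSC had 1 of 12 (Bcl2l1) where all gave 3.96%, and Alox5-/- LSC against HSC had 2 (both Socs2) where all gave 6.44%. For both BCR-ABL groups against HSC it was 3 of 12 (both of Socs2, and Ccnd2) where all gave 6.25%. Of the 6 fits with 1 array left out, the first Socs2 probe set kept an unadjusted p under 0.05 in 4, the second in 2 and Ccnd2 in 1. These comparisons share arrays, so the counts are not independent of each other. An exact two-sided permutation test cannot go below p = 0.333 with 2 arrays against 2. With 4 against 2 there are 15 splits, and doubling the one-sided permutation p cannot go below 0.133.

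Between LSC and HSC the groups did not overlap for 8 of 12 member probe sets, beside 34.2% of all probe sets. LSC was higher for 4 (11.1% of all) and lower for 4 (23% of all). The 4 higher were both Socs2 probe sets, Stat5a and Bcl2l1; the 4 lower were Stat5b, Socs1, Pim1 and Ccnd2. In Alox5-/- LSC against HSC it was 6 of 12 beside 35.7%, of which 2 were higher (8.13% of all) and 4 lower (27.6%). In both BCR-ABL groups against HSC it was 4 of 12 beside 15.8%, of which 2 were higher (3.28%) and 2 lower (12.5%). In these last comparisons the 2 higher were the probe sets of a single gene, Socs2, tied to the same transcripts. Between the BCR-ABL groups it was 2 of 12, Bcl2l1 and the second Socs3 probe set, both lower in Alox5-/- LSC, beside 31.6% of all (20.7% lower and 10.9% higher), which is no more than the background. After centring, Stat5a joined the members whose BCR-ABL arrays of both genotypes were all above HSC, the Socs3 probe set no longer separated the BCR-ABL groups, and Stat5b and the second Socs2 probe set did, with Alox5-/- LSC higher. The shares over all probe sets moved too: after centring 8.55% were higher and 6.88% lower in both BCR-ABL groups than in HSC, and 18.1% higher and 14.7% lower in Alox5-/- LSC than in LSC.

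The member median of LSC minus HSC was -0.08, beside -0.43 for all probe sets. For both BCR-ABL groups minus HSC these medians were -0.11 and -0.55, and 6 of 12 members were above 0, beside 11934 of all 34499 probe sets. For Alox5-/- LSC minus HSC the member median was the lower, at -0.89 beside -0.73. Here 4 of 12 members were above 0, beside 11364 of 34499. For Alox5-/- LSC minus LSC the medians were -0.30 and -0.28, with 4 of 12 members above 0, beside 14703 of 34499. The feedback genes lay on both sides of HSC, with Socs2 scores above and Socs1 scores below.

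**Figure D3:**
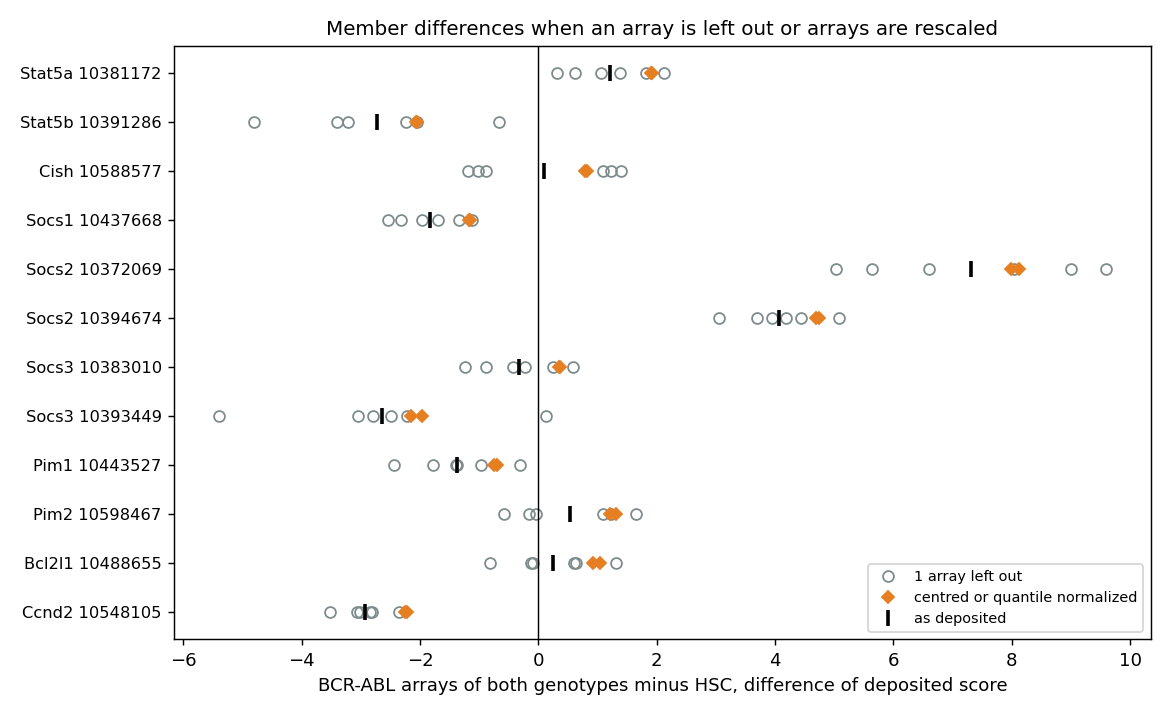
Mean of both BCR-ABL groups minus HSC (difference of deposited score) for each STAT5 member probe set, with a black bar for the values as deposited, open circles for fits with 1 array left out and diamonds for centred or quantile normalized arrays. Both Socs2 probe sets stay above 0, from 5.04 to 9.60 and from 3.05 to 5.08 with 1 array left out. Stat5a also stays above 0. Ccnd2, Stat5b, Socs1 and Pim1 stay below 0, while Cish, Pim2, Bcl2l1 and both Socs3 probe sets fall on both sides.

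Other genes of the pathway were read from lists of receptors, kinases, inhibitors, adaptors, further STAT genes and further targets, of which 68 of 76 genes were measured by 72 probe sets. None passed adjustment. At an unadjusted limma p under 0.05, both BCR-ABL groups against HSC had 1 probe set higher and 4 lower of 72, where all probe sets gave 1.23% higher and 5.01% lower. LSC against HSC had 1 higher and 2 lower (1.49% and 3.45% of all), Alox5-/- LSC against HSC 1 higher and 3 lower (1.12% and 5.32%), and Alox5-/- LSC against LSC 1 higher and 0 lower (1.22% and 2.73%). Medians over the 72 were -0.78, -0.72 and -0.16 for LSC minus HSC, Alox5-/- LSC minus HSC and Alox5-/- LSC minus LSC.

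The probe set with the smallest p among them read Socs6, another SOCS family inhibitor. Its probe set 10566668 scored 15.9 and 20.4 on HSC, 11.4 and 11.8 on LSC and 8.75 and 6.86 on Alox5-/- LSC arrays, so that the groups did not overlap in the order HSC, LSC, Alox5-/- LSC. Both BCR-ABL groups minus HSC was -8.49 ± 1.53 (SE; 95% interval -12.23 to -4.74; limma adjusted p = 0.727). The other Socs6 probe sets gave -2.63 ± 1.20 and 0.28 ± 1.51, so the probe sets of Socs6 disagreed in size and sign.

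Of the receptors, Il2rb, the interleukin-2 receptor beta chain, scored 15.4 and 20.9 on HSC, 14.5 and 12.9 on LSC and 12.4 and 12.0 on Alox5-/- LSC arrays, and Csf3r, the G-CSF receptor, 23.1 and 22.6, 20.0 and 17.6, and 21.7 and 18.0 in the same order. Both were lower on all 4 BCR-ABL arrays, by -5.18 ± 1.70 for Il2rb and -3.59 ± 1.44 for Csf3r (limma adjusted p = 0.774 and 0.796). Among further targets Tnfrsf13b, a B cell receptor for BAFF and APRIL, differed by 2.73 ± 1.09 and the early response factor Egr1 by -3.61 ± 1.41 (adjusted p = 0.796 and 0.792). Ccnd1, cyclin D1, differed by 2.33 ± 1.41. For LSC minus HSC the cytokine Osm was at 2.55 ± 1.31 (limma adjusted p = 0.993), beside the rest of the named pathway genes above.

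Between the BCR-ABL groups, Gfi1, a repressor that restrains stem cell proliferation, scored 18.9 and 19.2 on LSC and 21.7 and 21.8 on Alox5-/- LSC arrays, beside 19.8 and 20.0 on HSC. The Alox5-/- LSC arrays were above the other 4. Differences of Alox5-/- LSC minus LSC were 2.69 ± 1.06 for Gfi1 (limma adjusted p = 1.00), 3.23 ± 1.36 for probe set 10459602 of Ptpn2, a phosphatase of JAK kinases and STAT proteins, and -3.27 ± 1.48 for Pias1, a STAT inhibitor. The other Ptpn2 probe set gave 0.52 ± 3.08, with LSC arrays at 15.6 and 24.1.

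**Figure D4:**
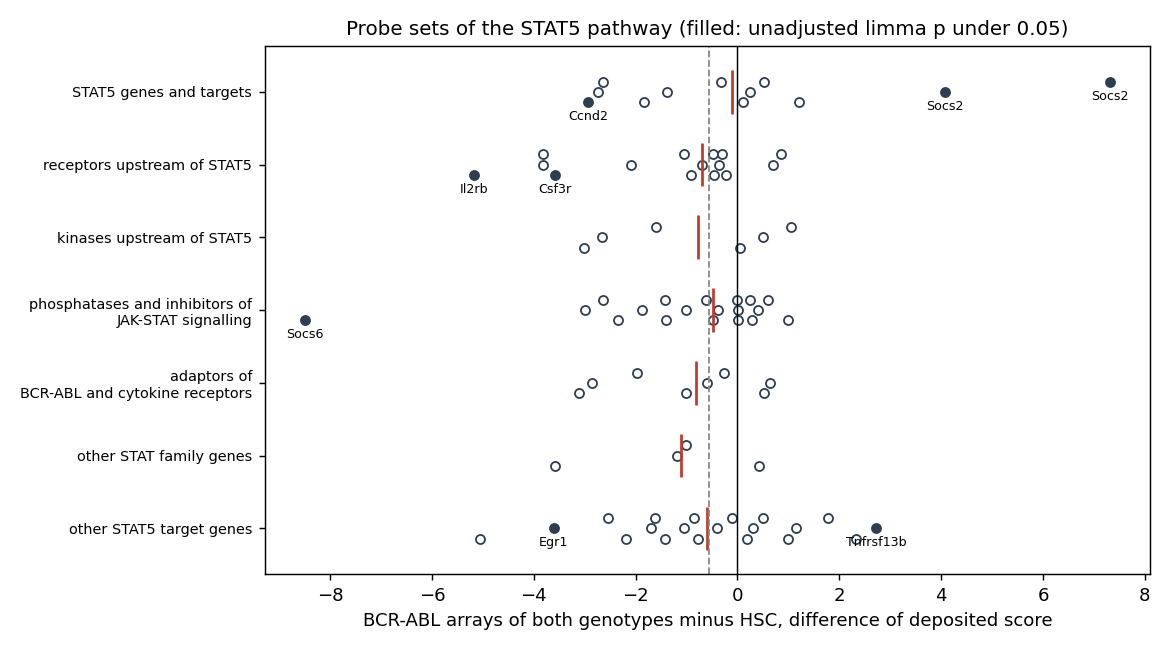
Mean of both BCR-ABL groups minus HSC (difference of deposited score) for the 12 STAT5 member probe sets and the 72 of the pathway lists, with 1 point per probe set, filled where the unadjusted limma p is under 0.05, red bars for list medians and a dashed line for the median of all probe sets. Both Socs2 points lie furthest right and a Socs6 point furthest left.

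Likeness between genes over these 6 arrays is a description only, since the arrays share their groups. Of 21600 named probe sets compared after centring, 29 correlated with Cish above 0.95, the closest being Gm10548 (Pearson r = 0.995, Spearman rho = 1.00) and Nynrin (r = 0.991, rho = 1.00). The first Socs2 probe set was followed most closely by Cd8b1 (r = 0.988, rho = 0.943) and Gsr (r = 0.984, rho = 0.943), and the second by Arfgef2 (r = 0.990, rho = 0.943) and Cdh11 (r = 0.990, rho = 0.886). For Bcl2l1 the closest were Defb35 (r = 0.996, rho = 1.00) and Defb38 (r = 0.986, rho = 1.00).

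Markers of other cells were read beside these results. For both BCR-ABL groups against HSC, where 6.25% of all probe sets had an unadjusted limma p under 0.05 (1.23% higher and 5.01% lower), this was found for 4 of 11 probe sets of stem and early progenitor markers, 2 higher and 2 lower. It was found for 2 of 5 of mast cell and basophil, 2 of 7 of monocyte and macrophage, 1 of 5 of B cell and 1 of 4 of erythroid markers, all lower, and for 1 of 4 of megakaryocyte markers, which was higher. It was 0 of 7 for T and NK cell, 0 of 8 for granulocyte and 0 of 6 for stromal and endothelial markers. Beside these it was 3 of 22 for widely expressed genes, 1 higher and 2 lower, and 0 of 17 for genes typical of other organs. The median score of the mast cell and basophil list was 18.2 and 17.8 on HSC, 16.8 and 16.5 on LSC and 15.1 and 14.9 on Alox5-/- LSC arrays. For the stem and early progenitor list the medians were 15.9 and 17.0, 17.6 and 16.5, and 17.2 and 13.8 in the same order. The part of any of these cell types in the Socs2 and Ccnd2 values was not tested.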

How the data were processed

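Total RNA of sorted marrow cells (100 to 300 ng) was amplified, biotin-labelled and put on Affymetrix arrays that read whole transcripts, per the labels' protocols. The deposited table gives each probe set 1 score on each array. Affymetrix Expression Console 1.1 and RMA are named per the submitters' processing notes, and the quantity, log base and direction of the deposited score are not given in the sources used here. The table held 35557 probe sets, of which 1058 were empty. Symbols came from the platform annotation (1 symbol for 21789 probe sets, several for 1621, none for 12147); all 12 member probe sets matched RefSeq genes by Entrez identifier.

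Scores were used as deposited. limma 3.58.1 in R 4.3.3 fitted a mean per group over all 6 arrays (3 residual degrees of freedom), with a prior variance that followed the mean score. Tests were two-sided, and p-values were adjusted by Benjamini-Hochberg over all 34499 probe sets, threshold 0.05. The fixed plan allowed for RMA values in log2; since the scores are not, differences of score are given. The fit was run on simulated scores with known shifts, drawn independently for each probe set and array, as a check of the code. That run does not show which differences these arrays could detect. The number of arrays limits the precision. Likeness between whole arrays did not set the groups apart. Replicate pairs (3) had r from 0.794 to 0.824. This lay inside the range of the 12 pairs that crossed groups, 0.782 to 0.839. Named genes were all members, the 2 pathway genes of lowest p on each side in every comparison, and the 2 genes most like Cish, Socs2 and Bcl2l1; Csf3r for both BCR-ABL groups and Egr1 were added after their values were seen. Members and lists were chosen with earlier results of these data known. Alternatives were centring, quantile normalization, 1 probe set per gene, a filter below the 25th percentile, log2 of score plus 1, no variance trend, a replicate block, fewer groups in the fit and leaving out each array.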

Additional observations from a re-analysis of the deposited data

How the results depend on the processing

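The count of 0 probe sets at a limma adjusted p under 0.05 held in all 4 comparisons under every alternative run, including each array left out; with fewer arrays compared, the combined BCR-ABL contrast was not refitted because it uses all 6. At an unadjusted p under 0.05 between 1 and 8 of the 48 member values passed with 1 array left out, against 7 as deposited, with the fewest without LSC replicate 1; counts over all probe sets at that p fell with 1 probe set per gene (fewer tested), to 939 from 1704 for LSC against HSC, 678 from 1365 for Alox5-/- LSC against LSC, 1392 from 2223 for Alox5-/- LSC against HSC and 1301 from 2155 for both BCR-ABL groups against HSC. The counts rose in every comparison with HSC when HSC replicate 1 was left out. For Alox5-/- LSC against LSC they rose without Alox5-/- LSC replicate 2. Such fits leave 1 array in a group. Of the 48 member values, 41 kept their sign after centring and 41 after quantile normalization, and 25 did so in every fit with 1 array left out. Centring moved the all-probe-set median of LSC minus HSC from -0.43 to 0.05, and the share of lower values at p under 0.05 from 69.9% to 53.1% (80.2% to 53.3% for both BCR-ABL groups against HSC, 82.5% to 49.1% for Alox5-/- LSC against HSC, 69.1% to 48.6% for Alox5-/- LSC against LSC). The cause of these sign changes was not tested beyond that shift.

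Signs changed under centring and quantile normalization, in that order, for the first Socs3 probe set in LSC minus HSC (0.094 and 0.22), Alox5-/- LSC minus HSC (0.61 and 0.51) and both BCR-ABL groups minus HSC (0.35 and 0.37), and for Cish in Alox5-/- LSC minus LSC (0.16 and 0.030) and Alox5-/- LSC minus HSC (0.86 and 0.84). They also changed in Alox5-/- LSC minus LSC for Socs1 (0.066 and 0.11) and Pim1 (0.17 and 0.16). With 1 array left out, ranges crossed 0 as follows. LSC minus HSC ran so for Cish -2.01 to 2.46, Socs3 (first) -1.51 to 0.75, Socs3 (second) -4.79 to 0.74 and Pim2 -0.50 to 2.29. Alox5-/- LSC minus LSC ran so for Stat5a -2.04 to 0.34, Cish -2.49 to 1.99, Socs1 -1.33 to 0.65, Socs2 (first) -4.39 to 2.34, Socs2 (second) -0.23 to 3.84, Socs3 (first) -1.03 to 1.24, Pim1 -1.04 to 0.56, Pim2 -2.12 to 0.66 and Ccnd2 -1.08 to 1.26. Alox5-/- LSC minus HSC ran so for Stat5a -0.40 to 1.98, Stat5b -4.06 to 0.079, Cish -2.01 to 1.96, Socs3 (first) -1.19 to 0.64 and Pim2 -0.96 to 1.29. Both BCR-ABL groups minus HSC ran so for Cish -1.19 to 1.39, Socs3 (first) -1.24 to 0.58, Socs3 (second) -5.40 to 0.12, Pim2 -0.58 to 1.65 and Bcl2l1 -0.81 to 1.31. After centring, deviations of arrays with the same replicate number correlated at -0.025, -0.048 and -0.041 over the 3 pairs of groups. Whether arrays with the same number shared a batch is not given, and centring removes any shift common to a whole array. With the replicate block 0 probe sets passed adjustment in each comparison, 5 of 48 member values had p under 0.05 (the first Socs2 probe set in Alox5-/- LSC against HSC, and Ccnd2, did not), and the unadjusted count for both BCR-ABL groups against HSC was 1908 instead of 2155.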
